A study of Mus musculus with 10 samples.

Results

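The MHC class II genes comprise the antigen-presenting chains H2-Aa, H2-Ab1 and H2-Eb1, the invariant chain Cd74 (older name Ii), the peptide exchange factor subunit H2-DMa and the transcriptional coactivator Ciita. They were followed in ventricular RNA of 2 transgenic mouse lines and nontransgenic hearts. Members were all probe sets annotated to 1 of these 6 symbols alone, which gave 10 of 22626 probe sets and 6 of 12393 genes. The genes were chosen by measured values, namely because H2-Aa and H2-Ab1 read lower in both lines than in the controls. Their differences from the controls are therefore given below as descriptions, with no test. The difference between the lines and that between pooled and individual extracts were not used in the choice and were tested.

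The TM175 and TM180 mice carry an alpha-tropomyosin transgene (labelled alpha-TM175 and alpha-TM180), and the controls, labelled NTG, carry none. From background knowledge of these lines, the transgenes encode tropomyosin with a substitution found in familial hypertrophic cardiomyopathy, are driven in cardiomyocytes by the alpha-myosin heavy chain promoter, and give milder disease in TM175 than in TM180. The series was set up to follow the onset of hypertrophy in a mild and a severe form. TM175 was measured on 3 arrays, TM180 on 4 and NTG on 3, all of untreated ventricles. In each genotype the highest-numbered array held a pool of extracts from 20 hearts and the others held 1 heart each. Age, sex, strain and the number of founder lines were not given in the sources used here. Nothing tells whether a pool contained the hearts measured alone, or whether the individual hearts were littermates. P-values therefore measure the spread between these extracts.

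Class II molecules carry peptides from the endosomal pathway to the cell surface, where CD4+ T cells read them. In the mouse the H2-Aa and H2-Ab1 chains pair as I-A, and the H2-Ea and H2-Eb1 chains pair as I-E. Cd74 escorts the new chains and plugs their groove, lysosomal cathepsins trim it, and H2-DM, of which H2-DMa is the alpha chain, exchanges the remnant for peptide. Ciita does not bind DNA itself but is recruited by RFX, CREB and NF-Y to the X and Y boxes of class II promoters, and interferon-gamma induces it in many cells. In the heart class II is mainly known from resident macrophages and dendritic cells. In extracts of whole ventricle, fewer cells of a type and less RNA per cell cannot be told apart.

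Stretches of the H2-Aa and H2-Eb1 promoters that hold letters of the boxes through which Ciita acts are printed, because these 2 chains share them and had different patterns below. Windows from 250 bases before to 50 bases after the start were available for 3 of the 6 members in RefSeq (GRCm38.p6), namely H2-Aa, H2-Eb1 and H2-DMa. Both strands were searched for GCAAC, the core of the X box, and CTGATTGG, the Y box, with starts 20 to 50 bases apart on the same strand. These letters were chosen with the sequences in view. Each stretch runs 5′ to 3′ on the strand of its gene, with both motifs in capitals.
H2-Aa: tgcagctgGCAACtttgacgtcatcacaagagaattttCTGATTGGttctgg
H2-Eb1: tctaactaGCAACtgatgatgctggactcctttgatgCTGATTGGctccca
H2-Oa: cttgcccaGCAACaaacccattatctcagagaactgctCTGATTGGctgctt
H2-Eb2: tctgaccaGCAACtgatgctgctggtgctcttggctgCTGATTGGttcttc
The H2-Aa stretch lies in the window chr17:34287774-34288073 on the minus strand, and its motifs start 81 and 51 bases before the gene, 30 bases apart. The H2-Eb1 stretch lies in chr17:34305617-34305916 on the plus strand, with motifs 91 and 62 bases before the start, 29 bases apart. H2-Oa (chr17:34092129-34092428) and H2-Eb2 (chr17:34325425-34325724), both on the plus strand, are class II genes outside the members and are shown for comparison of the spacing, which was 30 and 29 bases. Between its motifs the H2-Aa promoter also holds TGACGTCA, the palindrome bound by CREB, which overlaps neither of them and occurs in 1.79% of all windows. Neither of the 2 H2-DMa windows held the pair with these letters and spacing. Of all 32851 mouse windows 35.2% held GCAAC, 4.1% held CTGATTGG and 0.146% held the pair. Of the 9 windows of the listed class II genes 4 held it.

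Facts of the whole data set bear on the members as follows. The median intensity per array was 66.6 to 71.0, and 6 of the 10 member probe sets had a mean level above the median probe set. Cardiomyocyte markers summed to 45497 to 52184 per array, and the atrial markers Myl7, Myl4, Sln and Bmp10 to 263 to 396 in NTG, 339 to 404 in TM175 and 284 to 720 in TM180. TM175 array 1 stood apart in its sex-linked RNA, with 988 for Xist, which female cells express, against 99.5 to 136 in the remaining hearts measured singly, and 7.23 for the Y-linked gene Eif2s3y against 44.7 to 60.8. In the pools Xist read 149 in NTG, 414 in TM175 and 394 in TM180, and Eif2s3y read 46.7, 38.3 and 35.3. The part of sex in the class II differences was not tested. NTG array 2 read highest of the controls for all 10 member probe sets. Medians over the members are therefore also given without these 2 arrays.

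H2-Aa encodes the alpha chain of I-A. Its brightest probe set, 1435290_x_at, read 402, 649 and 416 in the NTG arrays, 177, 193 and 220.2 in TM175, and 205, 228, 169 and 209.6 in TM180, with the pool last in each genotype. Every transgenic array lay below every NTG array, and the 2 lines overlapped. Mean intensities were 489 ± 138 (SD, n = 3) in NTG, 196 ± 22.0 (SD, n = 3) in TM175 and 203 ± 24.8 (SD, n = 4) in TM180. The level was 2.44-fold lower in TM175 (log2 difference -1.28 ± 0.18, SE) and 2.37-fold lower in TM180 (-1.24 ± 0.17, SE). All folds here are ratios of geometric means.

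The second H2-Aa probe set, 1452431_s_at, read 408, 645 and 378 in NTG, 123, 135 and 186 in TM175, and 169, 175.1, 104 and 166 in TM180. Again no transgenic array reached a control, and TM180 array 3 stood below the rest of its group. The difference was -1.67 ± 0.25 (SE), or 3.18-fold lower, in TM175 and -1.62 ± 0.24 (SE), or 3.08-fold lower, in TM180. By name the x and s suffixes mark probe sets whose probes may also match related transcripts.

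H2-Ab1, the beta chain that pairs with H2-Aa, was measured by 3 probe sets. The brightest, 1450648_s_at, read 372, 459 and 282 in NTG, 161, 172 and 201 in TM175, and 203, 225, 159 and 191 in TM180. The lowest control was the NTG pool, which still lay above all 7 transgenic arrays. Means were 371 ± 88.9 (SD, n = 3) in NTG, 178 ± 20.6 (SD, n = 3) in TM175 and 194 ± 27.3 (SD, n = 4) in TM180. The level was 2.06-fold lower in TM175 (-1.04 ± 0.18, SE) and 1.89-fold lower in TM180 (-0.92 ± 0.17, SE).

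Probe set 1451721_a_at of H2-Ab1 read 186, 206 and 119 in NTG, 81.5, 69.9 and 96.2 in TM175, and 83.4, 97.5, 63.8 and 88.3 in TM180. Probe set 1425477_x_at read 93.1, 122 and 73.4 in NTG, 36.3, 39.1 and 40.7 in TM175, and 42.1, 50.5, 28.3 and 46.7 in TM180. The order of the groups was that of the brightest probe set in both, with no overlap with the controls. The log2 differences were -1.02 and -1.28 in TM175 and -1.01 and -1.20 in TM180, so the 3 probe sets of the gene ran the same way.

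H2-Eb1, the beta chain of I-E and a neighbour of the I-A genes in the class II region of chromosome 17, had another pattern. Its probe set 1417025_at read 76.2, 94.9 and 70.3 in NTG, 95.9, 89.0 and 77.8 in TM175, and 79.3, 70.2, 79.0 and 65.0 in TM180. All 3 groups overlapped. The log2 difference from NTG was 0.13 ± 0.14 (SE) in TM175 and -0.13 ± 0.13 (SE) in TM180. Of the 3 chains, H2-Aa and H2-Eb1 have the motif pair printed above, and no window was matched for H2-Ab1.

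Cd74 encodes the invariant chain. Its probe set 1425519_a_at read 466, 808 and 453 in NTG, 221, 264 and 347 in TM175, and 280.4, 324, 200.2 and 292 in TM180. No transgenic array reached a control, the 2 lines overlapped each other, and the TM175 pool came closest to the controls. Means were 576 ± 202 (SD, n = 3) in NTG, 277 ± 63.9 (SD, n = 3) in TM175 and 274 ± 52.7 (SD, n = 4) in TM180. The level was 2.04-fold lower in TM175 (-1.03 ± 0.25, SE) and 2.05-fold lower in TM180 (-1.04 ± 0.24, SE).

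**Figure D1:**
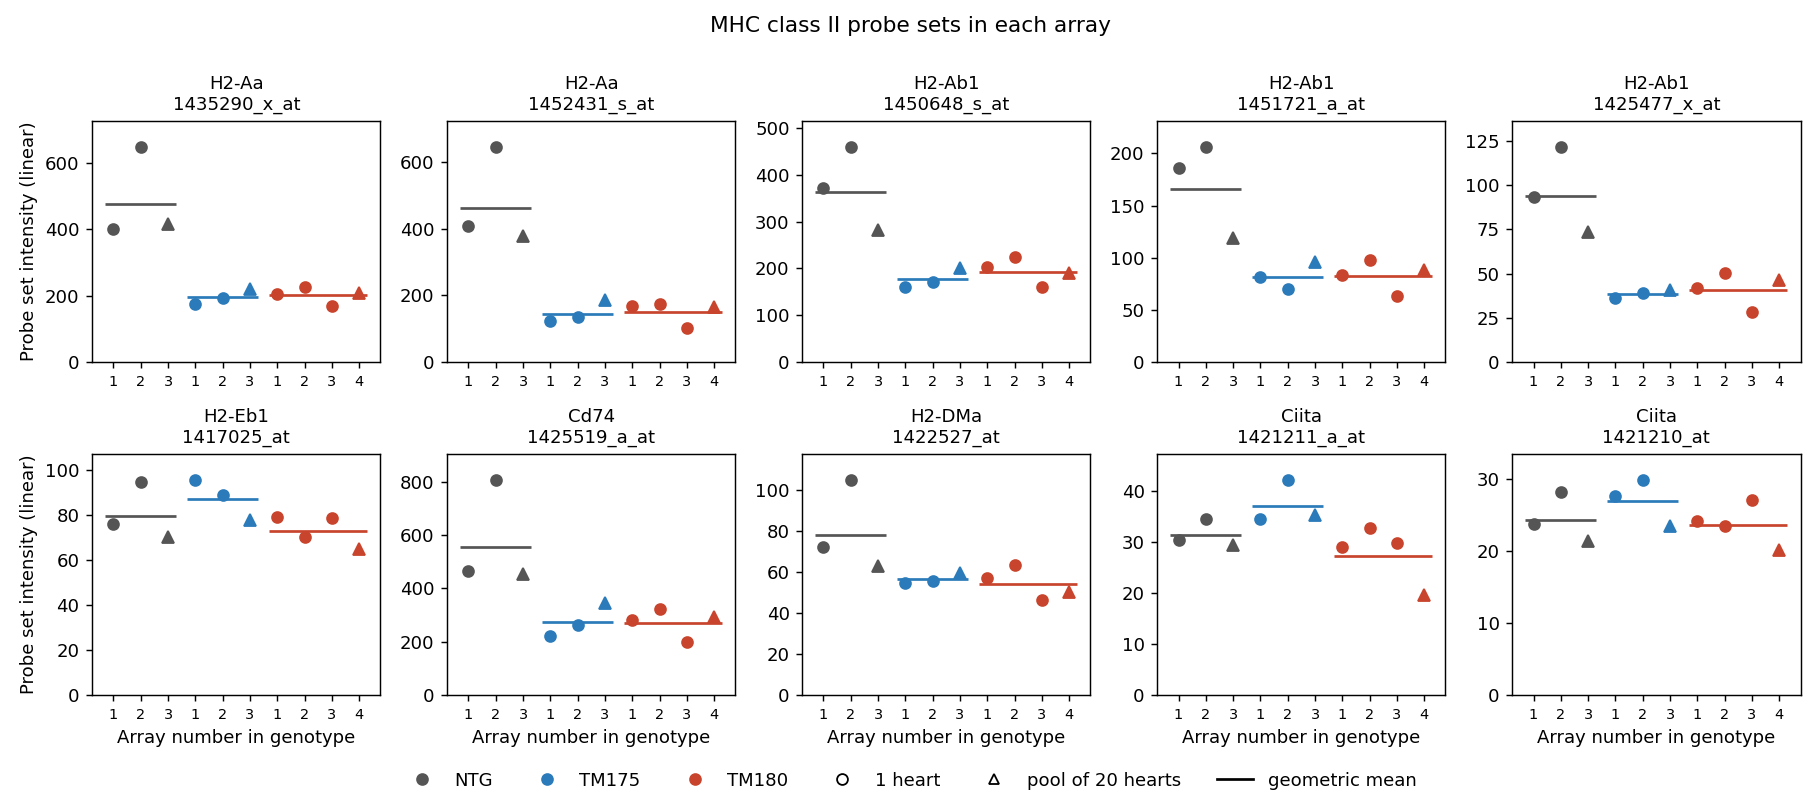
Probe set intensity (vertical axis, linear, from 0) of the 10 MHC class II probe sets in each array, by array number within NTG, TM175 and TM180. Circles are extracts of 1 heart, triangles pools of 20 hearts and lines geometric means. In the H2-Aa, H2-Ab1 and Cd74 panels every transgenic array lies below the 3 NTG arrays, whereas in the H2-Eb1 and Ciita panels the transgenic and control arrays overlap.

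H2-DMa, the alpha chain of the exchange factor that edits bound peptide, differed less. Probe set 1422527_at read 72.0, 105 and 63.0 in NTG, 54.7, 55.5 and 59.3 in TM175, and 56.8, 63.4, 46.4 and 50.4 in TM180. The TM175 arrays lay below the controls, but TM180 array 2 lay just above the NTG pool. The level was 1.38-fold lower in TM175 (-0.47 ± 0.18, SE) and 1.45-fold lower in TM180 (-0.54 ± 0.17, SE). Without NTG array 2 these differences were -0.25 and -0.32.

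Ciita, the coactivator on which class II transcription depends, read higher than NTG on average in TM175 and lower in TM180. Probe set 1421211_a_at read 30.4, 34.4 and 29.4 in NTG, 34.4, 42.2 and 35.2 in TM175, and 29.0, 32.8, 29.8 and 19.6 in TM180. The TM175 arrays were at or above the controls, TM180 array 4, the pool, was lowest, and each line overlapped NTG or touched it. Differences from NTG were 0.24 ± 0.18 (SE) in TM175 and -0.20 ± 0.17 (SE) in TM180. Probe set 1421210_at read 23.8, 28.2 and 21.4 in NTG, 27.7, 30.0 and 23.5 in TM175, and 24.2, 23.6, 27.1 and 20.2 in TM180, with all groups overlapping. Both probe sets lay below the median level of the array.

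Over the 10 member probe sets the median log2 difference from NTG was -1.02 in TM175 and -0.96 in TM180, beside 0.04 and -0.01 over all probe sets. Both differences share the NTG arrays. Without NTG array 2 the medians were -0.81 and -0.76, and without both NTG array 2 and TM175 array 1 they were -0.70 and -0.76. Without NTG array 2 the brightest H2-Aa probe set differed by -1.06 and -1.02, and Cd74 by -0.75 and -0.77. Arrays did not overlap, with all 7 transgenic arrays below all NTG arrays, for 6 of the 10 member probe sets (H2-Aa, H2-Ab1 and Cd74), as for 2.21% of all probe sets. TM175 arrays alone were all below NTG for 7 (8.11% of all) and TM180 arrays for 6 (4.19%). At least 2-fold lower in both lines were 5 member probe sets and 0.0707% of all. Since these differences chose the genes, nothing is read from those counts.

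The pools, each averaging 20 hearts, gave smaller differences than the individual hearts for all 7 probe sets of H2-Aa, H2-Ab1, Cd74 and H2-DMa. For the brightest H2-Aa probe set the pools differed by -0.92 in TM175 and -0.99 in TM180, and the individual hearts by -1.47 and -1.36. For the brightest H2-Ab1 probe set the pools differed by -0.49 and -0.56 and the individual hearts by -1.32 and -1.09. For Cd74 the pools differed by -0.39 and -0.63 and the individual hearts by -1.35 and -1.22, and for H2-DMa the pool values were -0.09 and -0.32. Each pool value compares 1 array with 1 array and has no replicate, and the transgenic pools also read higher for Xist than the NTG pool. Whether the genotype difference itself differed between pools and individual hearts was tested as an interaction in limma. It was called for 0 of 10 member probe sets in either line (0.00442% and 0% of all), with adjusted p-values from 0.884 to 1.00, and at 1 pool per genotype the difference was not measured closely.

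**Figure D2:**
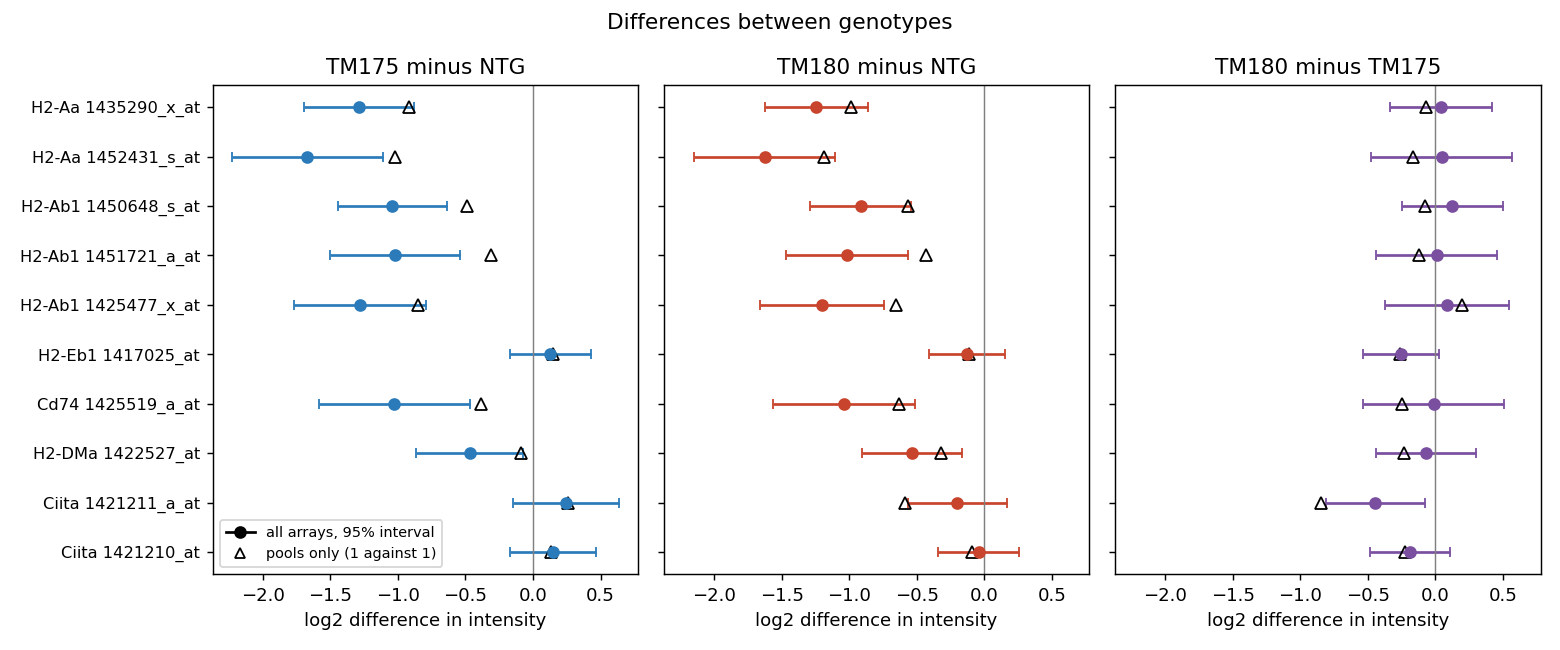
Log2 difference in intensity (horizontal axis) of each MHC class II probe set for TM175 minus NTG, TM180 minus NTG and TM180 minus TM175. Circles with bars are the estimate over all 10 arrays with its 95% interval and open triangles the difference between the pools alone. The H2-Aa, H2-Ab1, Cd74 and H2-DMa estimates lie below 0 against NTG in both lines, and the estimates between the lines lie from -0.44 for a Ciita probe set to 0.13 for an H2-Ab1 probe set.

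The comparison of TM180 with TM175 asked whether the class II genes differed between the severe and the mild line. In the limma fit with Benjamini-Hochberg adjustment over all probe sets, called under 0.05, 0 of 10 member probe sets passed, as were 0% of all, and 3001 of all and 1 of the members had an unadjusted p under 0.05. With extract type, pooled or individual, in the model the member count was again 0, with 0.0265% of all called. For the brightest H2-Aa probe set the difference was 0.04 (95% interval -0.34 to 0.42, adjusted p = 0.919, limma). For the brightest H2-Ab1 probe set it was 0.13 (-0.25 to 0.50, adjusted p = 0.731, limma), and for Cd74 -0.01 (-0.53 to 0.51, adjusted p = 0.985, limma). These intervals are wide enough that the lines are not shown to be alike.

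The member with an unadjusted p under 0.05 between the lines was Ciita probe set 1421211_a_at, whose 4 TM180 arrays were all below its 3 TM175 arrays (19.6 to 32.8 against 34.4 to 42.2). It was the only member probe set with that order, which 7.37% of all probe sets had. The log2 difference was -0.44 (95% interval -0.81 to -0.08, adjusted p = 0.337, limma), and -0.47 ± 0.12 (SE, adjusted p = 0.081, limma) with extract type in the model. The other Ciita probe set differed by -0.19 (-0.49 to 0.11) and H2-Eb1 by -0.25 (-0.54 to 0.03), and their lines overlapped. The Ciita difference passed the test under array weights alone of the alternatives run (adjusted p = 0.0379, limma). That setting called 2341 of all 22626 probe sets between the lines, so nothing is read from this 1 call.

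Pooled extracts were compared with individual hearts with genotype in the model. Of the member probe sets 1 of 10 was called, beside 22.2% of all, a share no higher than the background. It was Ciita 1421210_at, lower in the pools by 0.29 ± 0.08 (log2 difference -0.29, SE 0.08, adjusted p = 0.0285, limma) in all 3 genotypes, at 21.4, 23.5 and 20.2 in the pools. The call was lost without TM175 array 2 or 3, TM180 array 4, or NTG array 2 or 3. H2-Eb1 differed by -0.25 (adjusted p = 0.059, limma) and Ciita 1421211_a_at by -0.31 (adjusted p = 0.0642, limma). The 7 probe sets of H2-Aa, H2-Ab1, Cd74 and H2-DMa differed by -0.16 to 0.10.

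Among arrays of the same genotype, H2-Aa, H2-Ab1, Cd74 and H2-DMa varied together. After subtracting each genotype's mean, the log2 intensities of H2-Aa, H2-Ab1, Cd74 and H2-DMa correlated at Pearson r from 0.70 to 0.98 over the 10 arrays, with H2-Aa and Cd74 at 0.98. H2-Eb1 correlated at 0.89 with Ciita 1421210_at and at 0.51 with the other Ciita probe set, and the Ciita probe sets at 0.72 with each other. Between H2-Aa, H2-Ab1 or Cd74 and H2-Eb1 or Ciita, r ran from -0.14 to 0.26. H2-DMa stood between, at 0.48 with H2-Eb1 and at 0.42 and 0.36 with the Ciita probe sets. The arrays share their normalization, and these values describe the 10 extracts. For H2-Aa, H2-Ab1, Cd74 and H2-DMa NTG array 2 was highest of its genotype, TM180 array 3 lowest and the TM175 pool highest for all 7 probe sets. NTG array 2 lay above the mean of the other NTG arrays by 0.67 for the brightest H2-Aa probe set, 0.82 for Cd74 and 0.64 for H2-DMa on the log2 scale.

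Of the other class II genes on the array, 3 had a probe set of their own, and none of them was called in either line. H2-Ea, the alpha chain that pairs with H2-Eb1, read 263, 303 and 291 in NTG, 383, 342 and 252 in TM175, and 256, 266, 281 and 258 in TM180 by its brightest probe set, with all groups overlapping. Its other probe sets differed from NTG by -0.10 and 0.01 in TM175 and by -0.36 and -0.09 in TM180. H2-Oa, a subunit of the inhibitor of H2-DM, differed by 0.05 and -0.05, and H2-DMb2, a beta chain of H2-DM, by 0.17 and -0.07. H2-Ob and H2-DMb1 were read only by probe sets that also name another gene, which differed from NTG by -0.17 to 0.36.

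Of 57 listed genes that control class II, load it or work beside it, 49 were measured by a probe set of their own, and they were tested over all probe sets with limma. Between TM175 and NTG 0 were called (0.00884% of all probe sets were, 0% as lower), and 16.3% of the 49 had an unadjusted p under 0.05, beside 13% of all. Between TM180 and NTG 1 was called, as higher (0.504% of all were, 0.371% as higher), and 12.2% had an unadjusted p under 0.05, beside 9.34% of all. With extract type in the model the counts were 2 lower in TM175 (0.862% of all were called, 0.734% as lower) and 1 higher in TM180 (2.01% of all, 1.47% as higher). The medians of the 49 were -0.05 in TM175 and -0.05 in TM180, beside 0.04 and -0.01 over all probe sets. Between TM180 and TM175 0 were called, and 14.3% had an unadjusted p under 0.05, beside 13.3% of all.

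The gene that rose in TM180 was Ctsz, cathepsin Z, a lysosomal carboxypeptidase. It read 160, 128 and 118 in NTG, 146, 168 and 192 in TM175, and 228, 245, 239.9 and 212 in TM180. All TM180 arrays lay above every other array, and the level was 1.72-fold higher than in NTG (0.78 ± 0.13, SE, adjusted p = 0.0347, limma). The adjusted p exceeded 0.05 without any of TM175 array 2, the 4 TM180 arrays or the 3 NTG arrays (0.0528 to 0.143), and was 0.00901 with extract type in the model. Against TM175 the difference was 0.46 ± 0.13 (SE, adjusted p = 0.302, limma). Of the other 8 genes of peptide loading and turnover, Ctsb, cathepsin B and the brightest of the list, differed by -0.04 and 0.17. Ctss, the cathepsin that trims Cd74, read 208, 258 and 185 in NTG, 165, 143 and 195 in TM175, and 165, 194, 232 and 194 in TM180, and was not called.

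The 2 genes lower in TM175 with extract type in the model were Ifngr2 and Sppl2a. Ifngr2, the signalling chain of the interferon-gamma receptor and the brightest gene of its list, read 786, 679 and 856 in NTG, 414, 550.5 and 343 in TM175, and 627, 532, 446 and 437 in TM180. All 7 transgenic arrays lay below the controls. The difference was -0.85 ± 0.17 (SE, adjusted p = 0.0468, limma) in TM175 with extract type in the model, and adjusted p = 0.167 without it. In TM180 it was -0.62 ± 0.16 (SE, adjusted p = 0.0727, limma) with extract type in the model. Without extract type it was -0.61 ± 0.18 (SE, adjusted p = 0.213, limma) in TM180. Sppl2a, a protease that clears the Cd74 stub, read 214, 225 and 247 in NTG, 133, 166 and 189.8 in TM175, and 189.9, 194, 186 and 240.3 in TM180. The TM175 arrays lay below the controls, and TM180 overlapped them. It differed by -0.50 ± 0.10 (SE, adjusted p = 0.0475, limma) in TM175 with extract type and with adjusted p = 0.216 without it. In TM180 the difference was -0.15 ± 0.09 (SE, adjusted p = 0.525, limma) with extract type and -0.18 ± 0.14 (SE, adjusted p = 0.857, limma) without it.

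Of the rest of the interferon-gamma list, Jak1, a kinase of the receptor, read 508, 375 and 651 in NTG, 292.5, 346 and 542 in TM175, and 335, 293, 252 and 514 in TM180. The groups overlapped, and each pool was the highest array of its genotype. In the fit with extract type Jak1 differed from NTG by -0.39 ± 0.14 (SE, adjusted p = 0.144, limma) in TM175. In TM180 it differed by -0.51 ± 0.13 (SE, adjusted p = 0.0727, limma). Without extract type the adjusted p was 0.591 (limma) in both lines. Irf1, a transcription factor induced by interferon-gamma, read 288, 348 and 253 in NTG, 264, 266 and 297 in TM175, and 259.6, 268, 255 and 255 in TM180, which overlap. Ifng itself read 12.98 to 18.5 in all arrays, below the level of the median probe set. Of 9 measured genes 6 lay below 0 in TM175 and 5 in TM180. The summed level of the list was 2149 to 2507 in NTG, 1691 to 2010 in TM175 and 1746 to 2051 in TM180, without overlap with NTG. A linear sum rests mostly on bright genes such as Ifngr2 and Jak1, and the list's median log2 differences were -0.09 and -0.05.

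The factors listed as working with Ciita at class II promoters were all measured. All 8 listed factors, Rfx5, Rfxap, Rfxank, Nfya, Nfyb, Nfyc, Creb1 and Crebbp, gave 0 calls, with differences of -0.09 to 0.20 in TM175 and -0.11 to 0.28 in TM180. Nfyc, an NF-Y subunit and the brightest of them, read 372 to 405 in NTG, 363 to 383 in TM175 and 349 to 407 in TM180. The costimulation list gave 0 calls among 8 genes, with medians of 0.19 and -0.01. Its brightest gene was Icam1, an adhesion molecule, at 75.7 to 90.6 in NTG, 86.3 to 137 in TM175 and 90.8 to 114 in TM180.

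MHC class I genes present cytosolic peptides on nearly all cells. Of 12 measured genes 11 lay below 0 in TM175 (median -0.29) and 10 in TM180 (median -0.23), beside medians of 0.04 and -0.01 over all, and 0 were called in either line. Without NTG array 2 the counts were 7 and 7 of 12, with medians of -0.06 and -0.06, beside 0.05 and 0.02 over all, so most of the shift of this list rests on that array. B2m, the shared light chain, read 2295, 3581 and 2259 in NTG, 1942, 1528 and 2152 in TM175, and 1625, 1990, 1417 and 1975 in TM180. No transgenic array reached a control, and the differences were -0.51 ± 0.21 (SE, adjusted p = 0.343, limma) and -0.61 ± 0.19 (SE, adjusted p = 0.264, limma), or -0.30 and -0.39 without NTG array 2. H2-D1, a heavy chain and the brightest gene of the list, read 2100, 4123 and 1664 in NTG, 2680, 2655 and 2068 in TM175, and 2004, 2357, 2390 and 1647 in TM180, which overlap.

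In NTG array 2, 10 of the 12 class I genes were the highest of the controls and 2, Canx and Pdia3, the lowest. The list's median gene lay 0.61 above the mean of the other NTG arrays there on the log2 scale. The same value was 0.57 for the members, 0.01 for the interferon-gamma list and -0.09 for the class II factors. Over the cell type marker lists given below it ran from -0.355 for fibroblasts to 0.41 for monocytes. It was 0.28 for atrial, 0.23 for dendritic cell, 0.19 for T and NK cell, 0.17 for B cell and 0.01 for macrophage markers. The summed class I level was 10481, 15422 and 9335 in the NTG arrays, 9470 to 9889 in TM175 and 9293 to 11113 in TM180, so that the 3 groups overlapped. Irf1 and Cd274, which encodes a ligand of the inhibitory T cell receptor PD-1, were highest in the same array, at 348 and 96.0. Within genotypes, the brightest H2-Aa probe set correlated over the 10 arrays at -0.16 (Pdia3) to 0.89 (Tap1) with the 12 class I genes, at -0.36 (Irf2) to 0.83 (Irf1) with the 9 interferon-gamma genes and at -0.48 to 0.41 with the 8 class II factors. Without NTG array 2, Irf1 differed from NTG by 0.03 in TM175 and -0.06 in TM180, and Cd274 by 0.43 and -0.03. Why this array stood apart was not tested.

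**Figure D3:**
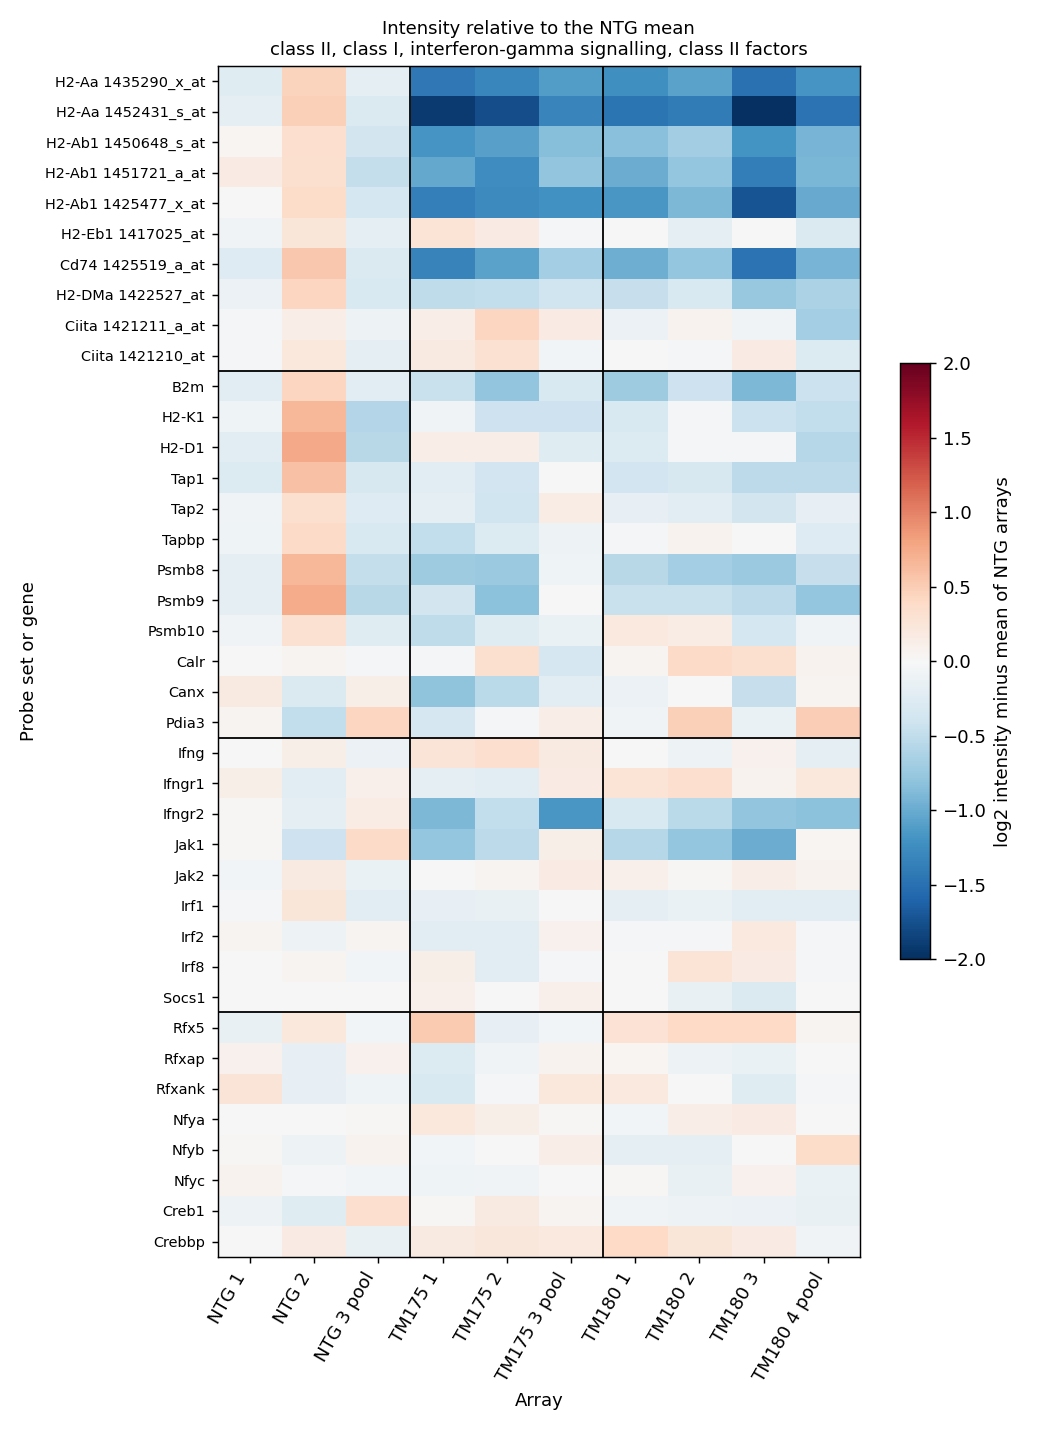
Colour shows log2 intensity minus the mean of the NTG arrays for the class II, class I and interferon-gamma signalling genes and the class II factors (rows) in each of the 10 arrays (columns). The H2-Aa, H2-Ab1 and Cd74 rows are below 0 in all 7 transgenic arrays, and NTG array 2 is the highest control in all class II rows and in 10 of the 12 class I rows.

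Class II RNA is carried by particular cells, so markers of the cells that a ventricle could hold were read beside it, counted as called with limma and summed over their probe sets. The values of these arrays never reach 0, and the dimmest marker is given instead. Of 8 dendritic cell markers 0 were called in either line. Their summed level was 534 to 647 in NTG, 531 to 663 in TM175 and 481 to 572 in TM180, and the dimmest, Ccr7, had a mean level of 19.7. Of 8 B cell markers 0 were called, at 409 to 509 in NTG, 455 to 575 in TM175 and 402 to 466 in TM180, the dimmest being Cd79b at 18.1.

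Of 15 macrophage markers 0 were called. They summed to 3309 to 3804 in NTG, 2615 to 3838 in TM175 and 3673 to 4002 in TM180, with Csf1r the brightest and Itgam the dimmest at 14.7. TM175 array 1, at 2615, was the lowest of the 10 arrays. The 10 pan-leukocyte markers gave 0 calls and 830.5 to 1030 in NTG, 879 to 922 in TM175 and 928 to 1064 in TM180. The 5 monocyte and 8 T and NK cell markers gave 0 calls too, at 127 to 170.3 and 480.2 to 519 in NTG, 129 to 185 and 546 to 567 in TM175, and 116 to 151 and 476 to 530 in TM180. In TM180 the median log2 difference from NTG was -0.05 for dendritic cell markers, -0.02 for B cell markers, 0.03 for macrophage markers and 0.01 for pan-leukocyte markers. In TM175 the same medians were 0.17, 0.21, -0.15 and -0.15.

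None of these marker sums was lower than NTG in all transgenic arrays. Since H2-Aa and H2-Ab1 were chosen for lower values, nothing is read from setting the members beside these sums. The lymphoid and dendritic sums rest partly on dim probe sets (Cd3g, the dimmest T cell marker, had a mean level of 15.3), and whether they could show a change in few cells was not tested. Of 8 fibroblast markers 3 rose in TM180 (5 with extract type in the model) and 0 in TM175, and they summed to 4815 to 7052 in NTG, 6522 to 9952 in TM175 and 8337 to 12313 in TM180. Endothelial, cardiomyocyte and atrial markers gave 0 calls of 8, 8 and 4, and the endothelial sum was 2498 to 2654 in NTG, 2625 to 3540.2 in TM175 and 2760 to 3178 in TM180. The part of fibroblast and endothelial markers in the class II differences was not tested.

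**Figure D4:**
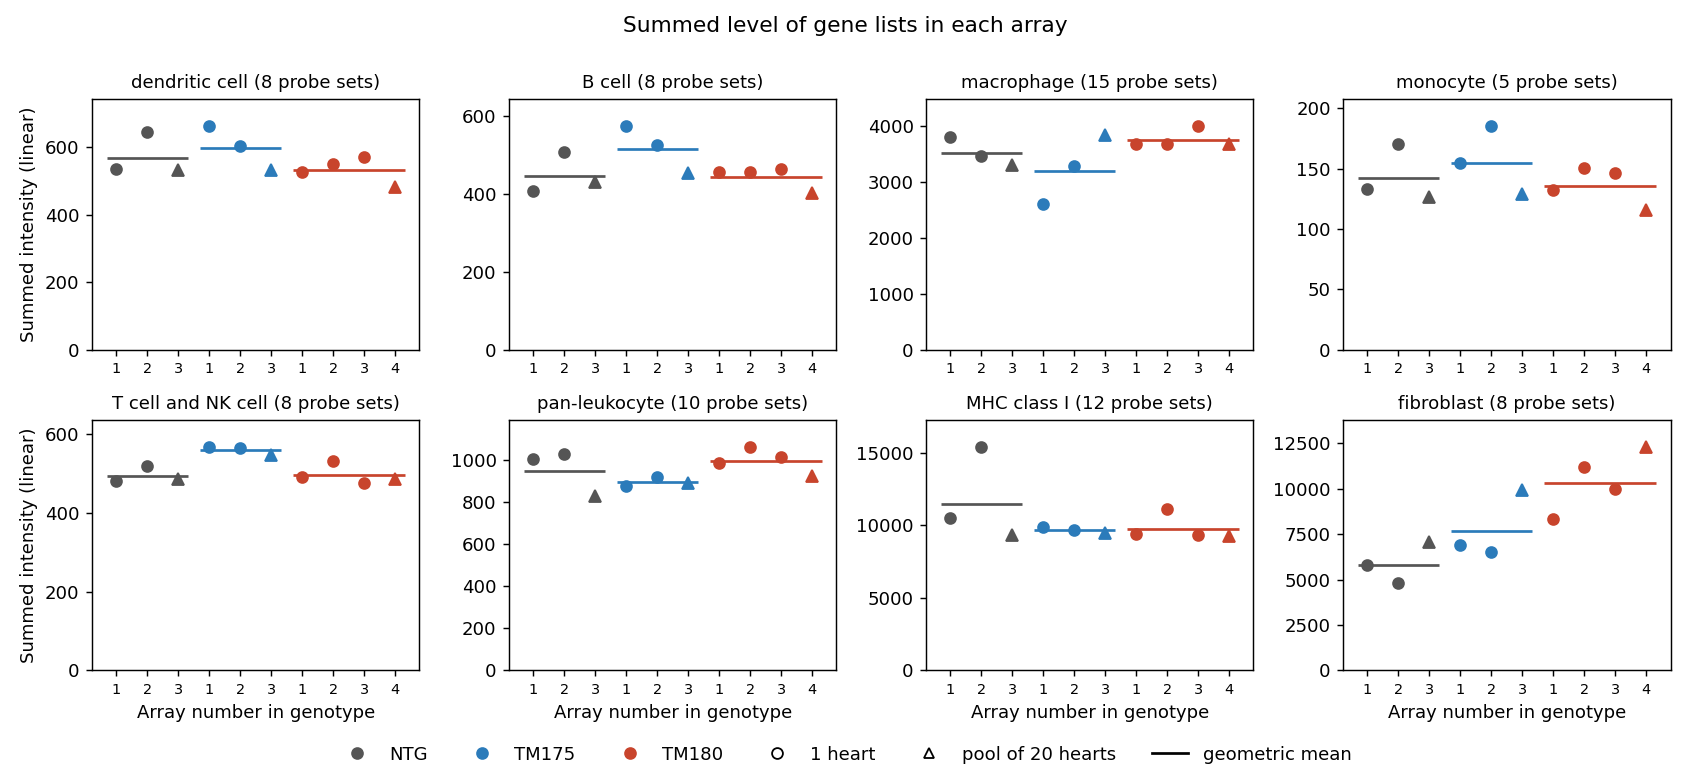
Summed linear intensity (vertical axis, from 0) of gene lists in each array, by array number within NTG, TM175 and TM180, with circles for 1 heart, triangles for pools of 20 hearts and lines for geometric means. The dendritic cell, B cell and macrophage sums of the transgenic arrays overlap those of NTG, and the class I sum stands out in NTG array 2 at 15422.

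The genes whose pattern was most like the brightest H2-Aa probe set were ranked by Pearson r over the 10 arrays among 7328 genes with a probe set above the median level. The first 8 were Psme1 (0.94), Atp5j (0.92), Cox7a1 (0.91), Cycs (0.90), Parp12 (0.90), Msl3 (0.89), B2m (0.88) and Cacna1c (0.88). As these values rest largely on the difference between NTG and the lines that chose the members, r was also computed with the genotype means removed. It was then 0.91 for Parp12, an ADP-ribosyltransferase, and 0.86 for B2m, and 0.13 to 0.61 for the others. Parp12 read 78.9, 137 and 82.1 in NTG, 53.0, 56.8 and 75.9 in TM175, and 68.4, 74.2, 64.3 and 62.3 in TM180, and NTG array 2 was its highest. Psme1, a subunit of a proteasome activator, read 960.4, 1103 and 1018 in NTG, 677, 771 and 773 in TM175, and 806, 676, 660.2 and 706 in TM180. Its controls lay above every transgenic array and close together.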

How the data were processed

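Ventricular RNA went onto Affymetrix 3′ expression arrays as biotin-labelled cRNA, 1 array per extract, per the labels' protocols. The deposited values are linear probe set intensities that the authors made with RMA, per the submitters' processing notes (version not stated), a method that subtracts background, equalises the distributions of the arrays and combines the probes of a set. Intensities from 1000 up were written with a point before the last 3 digits. This was undone for 7844 values in 1057 probe sets. The written form of a value decided where it could, and otherwise the other arrays of the probe set did. The level of 228 probe sets stayed unsettled, none of them a member. The reading was checked on simulated data. After 64 control probe sets were set aside, 22626 were kept, of which 20380 carried 1 symbol in GEO's platform annotation, 691 several and 1555 none.

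limma 3.58.1 in R 4.3.3 (lmFit and eBayes) was run on log2 intensities of all 10 arrays with a mean for each genotype, two-sided, adjusted by Benjamini-Hochberg over 22626 probe sets and called under 0.05. The fit was checked on simulated data. The number of arrays limits the precision. Listed genes were read by their brightest probe set with that symbol alone. Of the 57 pathway genes 49 were measured. Actc1 was left out of the cardiomyocyte sum because its level was unsettled, and Ddx3y, named for the check of the arrays, had no probe set of its own symbol. Members and lists were chosen with earlier results of these data known. Named were all member probe sets, pathway genes called in any comparison, the brightest gene of each pathway list and the 8 genes most like H2-Aa. Irf1, Jak1, Ifng, Ctss, Cd274, Tap1, Irf2, Canx and Pdia3 were named after their values were seen. Alternatives were extract type as a covariate, individual extracts only, replicate number as a block, other normalizations, filters, weights and thresholds, gene means and leaving out arrays. The repair, promoter search and plots used Python 3.11.15 with pandas 2.3.3, numpy 2.4.6 and matplotlib 3.10.9.

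Replicate numbers were not used to pair the arrays in the main fit. The correlation of same-numbered arrays' deviations from their genotype means ran from -0.53 to 0.71, and from 0.31 to 0.48 for arrays numbered 2. Number 3 set an individual TM180 heart against the TM175 and NTG pools, so these values cannot exclude pairing.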

Additional observations from a re-analysis of the deposited data

Results flagged for a closer look

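The second H2-Aa probe set, 1452431_s_at, held an array far from the others of its group in TM180. Array 3 read 104 beside 166 to 175.1 in the other 3. On the log2 scale this gap was 0.899 of the group's range, above Dixon's 95% critical value for 4 samples. Chance marks about 5% of groups in this way, and 10 probe sets were looked at. The same array was lowest of TM180 for the other 6 probe sets of H2-Aa, H2-Ab1, Cd74 and H2-DMa. Its gap was 0.52 to 0.70 of the log2 range for those of H2-Aa, H2-Ab1 and Cd74. For H2-DMa the larger end gap, 0.35 of the range, was that of array 2, the highest.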

How the results depend on the processing

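The 318 values of the H2-Aa, H2-Ab1, Cd74 and H2-DMa probe sets against NTG under the alternatives all lay below 0. Of the values of single member probe sets against NTG, 415 moved by less than the spread between arrays and 37 by more. Ctsz, which lost its call under several alternatives, is not in these counts. The median of the members in TM175 (-1.02) was -1.33 with individual extracts only, -0.75 with the mean of a gene's probe sets, -1.20 to -0.81 when any 1 array was left out, -0.70 without both TM175 array 1 and NTG array 2, and -0.79 when extract type was fitted and NTG array 2 left out. The median in TM180 (-0.96) was -1.14 to -0.76 when any 1 array was left out and -0.73 with extract type and without NTG array 2. The count of members called between the lines (0) was 1 with array weights and 0 when any 1 array was left out. The count called between pooled and individual extracts (1) was 0 with the replicate block, renewed quantile normalization, only probe sets above the median level, an adjusted p under 0.01, or both arrays left out, 2 with gene means, 3 with array weights, and 0 to 3 when any 1 array was left out. Of the pathway genes called in TM175 (0), there were 2 with extract type, 4 with extract type and without NTG array 2, 12 with array weights and 0 when any 1 array was left out. Those called in TM180 (1) were 0 with individual extracts only, the replicate block, only the groups compared, an adjusted p under 0.01 or both arrays left out, and 0 to 1 when any 1 array was left out. Between the lines (0) they were 6 with array weights. Under array weights 5361 of all 22626 probe sets were called in TM175 against 2 without. Between the lines they called 2341 against 0, and between pooled and individual extracts 6627 against 5013. The replicate block left the member medians at -1.02 and -0.98. The settings that leave out 2 arrays, or extract type together with 1, were chosen after seeing the data, as was the reading of each list without NTG array 2. The number of arrays limits all values, and 4 of the 10 member probe sets lie below the median level. The causes of these changes were not tested.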
